A study of Mus musculus with 4 samples.

Results

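Thyroid hormone reaches its receptors in a tissue only after transporters have carried it into the cell and deiodinases have set how much of it is active. The genes described here are 3 deiodinases (Dio3, Dio2 and Dio1), 1 membrane transporter (Slc16a10) and both hormone receptors (Thra and Thrb). They were taken as every non-control probe that the array files name for one of these genes, which gave 6 of the 28034 genes on the array and 12 of its 41174 probes. The genes were chosen from the difference between knockout and control skin, so that difference is given below as a description with no test. The 2 cKO animals (cKO stands for conditional knockout) were Adam17 flox/flox and carried Krt14-Cre, which deletes the gene for the sheddase ADAM17 in keratinocytes. The 2 control animals were Cre-negative littermates, called wild-type in the study's design, and the sources used here do not give whether they carried 1 or 2 floxed alleles. All animals were 10 days old on a mixed 129Sv and C57BL/6 background, and each of 2 litters gave 1 cKO and 1 control back skin biopsy, measured on 1 one-colour Agilent array each. The keratin 14 promoter drives Cre in the basal epidermis and outer hair follicle, so cells of the biopsy that do not descend from these, such as those of the dermis, keep the gene, and the Cre-negative controls do not show what Cre alone does.

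Thyroxine (T4) is the main hormone the thyroid gland secretes, and triiodothyronine (T3) is the form that binds the nuclear receptors with high affinity. Type 2 deiodinase makes T3 from T4 inside cells, type 3 deiodinase inactivates both hormones, and type 1 deiodinase can do either and acts mainly in liver, kidney and thyroid gland. In mouse keratinocytes type 3 deiodinase is a known target of hedgehog signalling, and the receptors act in skin on keratinocyte growth and on the hair cycle.

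Log2 signal is given relative to the 75th percentile of the array's gene spots (0 is a signal equal to that percentile), and differences are cKO minus control on that scale. The 75th percentile lay between 751 and 784 units of processed signal, and of 43379 gene spots each array had 53.7% to 56.6% well above background. Across the 15550 genes tested the median difference was 0.03. The probe that stands for Adam17 had log2 signals of -0.14 and -0.12 in cKO skin, against 0.44 and 0.37 in control skin, so its mean was 69.0% of control, and the other Adam17 probe gave 68.5% (adjusted p = 0.114 for the gene, limma with Benjamini-Hochberg adjustment over all genes). The sources used here do not give whether either probe lies in the deleted part. In a biopsy of whole skin, fewer cells of a type and less RNA per cell cannot be told apart.

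The 2 deiodinase promoters are shown because these genes varied most among the members over the 4 arrays, Dio3 by genotype and Dio2 by litter. They are RefSeq sequences of build GRCm38.p6, which is not the build of the array files, and run from 250 bases before to 50 bases after the gene's start. Dio3 lies at chr12:110278980-110279279 on the plus strand and Dio2 at chr12:90738989-90739288 on the minus strand. Capitals mark matches to the motifs named below.
Dio3 promoter: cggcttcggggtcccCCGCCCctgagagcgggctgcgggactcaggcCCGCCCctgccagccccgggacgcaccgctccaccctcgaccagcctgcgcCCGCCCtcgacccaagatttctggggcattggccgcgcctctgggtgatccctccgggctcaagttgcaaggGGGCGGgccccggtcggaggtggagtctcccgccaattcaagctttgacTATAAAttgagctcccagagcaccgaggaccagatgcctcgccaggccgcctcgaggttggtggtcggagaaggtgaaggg
Dio2 promoter: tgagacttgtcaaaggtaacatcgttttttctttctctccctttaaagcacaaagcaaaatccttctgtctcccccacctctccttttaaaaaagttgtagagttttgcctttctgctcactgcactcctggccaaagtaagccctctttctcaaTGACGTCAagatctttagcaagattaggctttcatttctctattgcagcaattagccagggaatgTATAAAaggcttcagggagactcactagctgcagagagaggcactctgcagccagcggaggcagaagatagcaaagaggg

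Both strands were searched for the TATA box (TATAAA), the GC box (GGGCGG), the cAMP response element (TGACGTCA), a GLI site (GACCACCCA), the nuclear receptor half-site (AGGTCA) and the AP-1 site (TGANTCA). No marked match overlaps another in these 2 windows. The Dio3 promoter held a TATA box beginning at -31, counted from the gene's start, and 4 GC boxes, of which the one at -80 is on the gene's own strand and those at -235, -203 and -152 are on the other. The Dio2 promoter held a TATA box at -30 and a cAMP response element at -95, and no GC box. Of 32851 RefSeq promoter windows of this length, 13.6% held the TATA box, 35.7% the GC box and 1.79% the cAMP response element. The GLI site (0.253% of windows), the half-site (16.3%) and the AP-1 site (7.81%) are not in the letters of either window.

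Dio3 encodes the type 3 deiodinase, which removes an inner-ring iodine from T4 and T3 and so inactivates them. Its single probe, at chr12:111519117-111519176 in mm9 on the plus strand, starts with the 30 bases below.
Dio3 probe: ggatgcgagaactttttggagaagggatta

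The Dio3 probe read 400.1 and 534 units in cKO skin (litters 1 and 2), against 2254 and 2570.4 units in control skin. It was well above background on all 4 arrays, and both cKO animals lay below both control animals. On the log2 scale the cKO mean was -0.75 ± 0.29 and the control mean 1.65 ± 0.09 (SD, n = 2 each), a difference of -2.39 (SE 0.17). Expressed linearly, cKO skin held 19.0% of the control signal, a 5.26-fold lower level. In litter 1 the difference was -2.53 (5.79-fold lower in the cKO animal) and in litter 2 it was -2.25 (4.77-fold lower). Among the 15550 genes tested, 28 had a larger fall, and 0.231% had a larger difference in either direction.

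**Figure D1:**
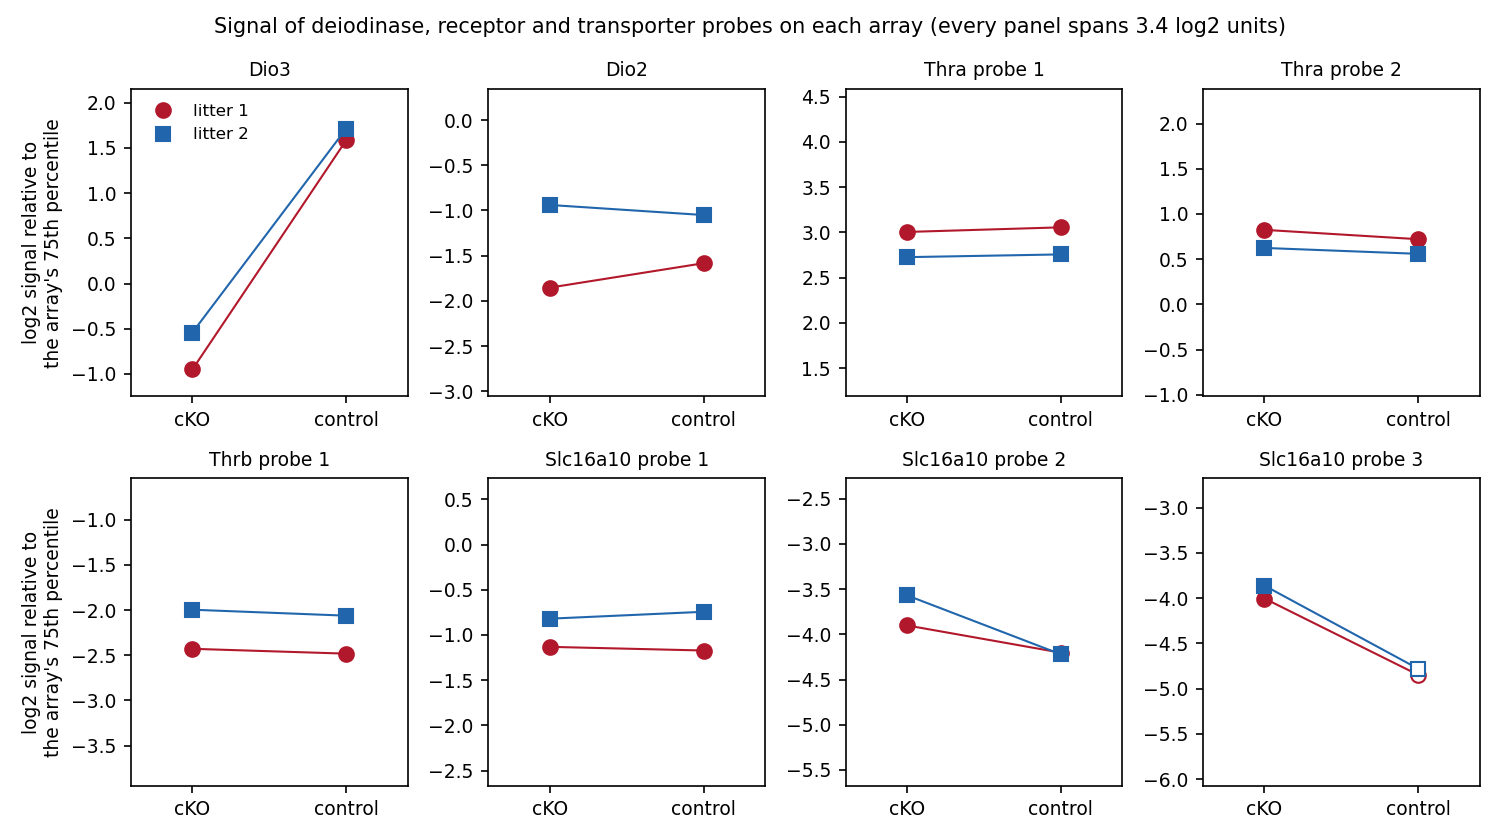
Log2 signal (vertical axis, relative to the array's 75th percentile) of 8 member probes in cKO and control skin, with one point per animal, a line joining the littermates, and every panel spanning the same log2 range. Filled points are well above background and open points are not. The cKO points of Dio3 lie at -0.95 and -0.54, against 1.59 and 1.71 in control. In the panels of Dio2, Thra, Thrb and Slc16a10 probe 1 the lines are nearly flat beside those of Dio3.

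By limma over all genes, 53 genes (0.341%) passed an adjusted p of 0.05 between cKO and control skin, 42 lower in cKO (0.27%) and 11 higher (0.0707%). Dio3 was 1 of the 42, and the other 4 members that passed the filter on dim probes were not among the 53. Since this comparison chose the members, nothing is read from that count. With litter as a block no gene passed (lowest adjusted p 0.0567, 3706 genes at an unadjusted p under 0.05), and none passed without control replicate 1 or without control replicate 2. The Dio3 difference itself lay between -2.60 and -2.19 when any 1 animal was left out.

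Dio2 encodes the type 2 deiodinase, which converts T4 to T3 within cells and is abundant in brown fat, brain and pituitary. Its probe, at chr12:91963235-91963294 in mm9 on the minus strand, read 214 and 406 units in cKO skin (litters 1 and 2), against 251 and 378 units in control skin. It was well above background on all 4 arrays, and the 2 genotypes overlapped. The mean difference was -0.08 (SE 0.37), with -0.27 in litter 1 and 0.11 in litter 2. The lower of the values in each genotype came from litter 1 and the higher from litter 2.

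Dio1 encodes the type 1 deiodinase of liver, kidney and thyroid gland. Its probe read 6.35 and 8.75 units in cKO skin, against 8.07 and 12.9 units in control skin, and was not well above background on any of the 4 arrays. These values have no order, and Dio1 was not tested. The files place this 60-base probe at chr4:106964052-106964088 in mm9 on the minus strand, a span of 37 bases.

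Slc16a10 encodes a monocarboxylate transporter family member that carries aromatic amino acids and thyroid hormones across the cell membrane. Its 3 probes, numbered from the highest mean signal, did not give the same difference between genotypes, and their first 30 bases are shown because they read different parts of the gene. All 3 lie on the minus strand of chromosome 10 in mm9.
Slc16a10 probe 1: gccaacctaaaccttgagtctgttaaatga
Slc16a10 probe 2: agcagtgtgaagctctttaacacgctgcgg
Slc16a10 probe 3: tgtgagatatttctggaaaacacgagaatt

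Probe 1 (chr10:39756480-39756539), which the files assign to RefSeq transcript variant 1, read 353 and 441 units in cKO skin (litters 1 and 2), against 334 and 468 units in control skin. The genotypes overlapped, and the mean difference was -0.02, with 0.04 in litter 1 and -0.08 in litter 2. Probe 2 (chr10:39796577-39796636), assigned to variant 2 and to 1 Ensembl transcript that probe 1 also carries, read 51.7 and 65.5 units in cKO skin, against 40.8 and 42.0 units in control skin. It was well above background on all 4 arrays, both cKO values lay above both control values, and the mean difference was 0.48 (0.30 in litter 1 and 0.65 in litter 2), or 1.39-fold.

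Probe 3 (chr10:39795726-39795785), which the files assign to variant 2 alone, read 48.2 and 53.5 units in cKO skin, against 26.1 and 28.5 units in control skin. It was well above background on both cKO arrays and on neither control array. Its cKO level was 1.74-fold higher when each control array was set no lower than the dimmest signal still well above background. This is not a lower limit, since normexp background correction with 3 spots left out, given below, had a smaller difference. The measured means were -3.93 ± 0.10 in cKO and -4.81 ± 0.05 in control (SD, n = 2 each), a difference of 0.88 (0.84 in litter 1 and 0.92 in litter 2). Along the gene, probe 3 lies 851 bases and probe 1 lies 40.1 kb downstream of probe 2. With normexp background correction (3 spots at or below their local background left out) the differences of probes 2 and 3 were 0.22 and 0.47. Probe 1 stands for the gene in the tests across all genes because it has the highest mean, and the mean over the gene's probes gave a difference of 0.45 in place of -0.02.

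**Figure D2:**
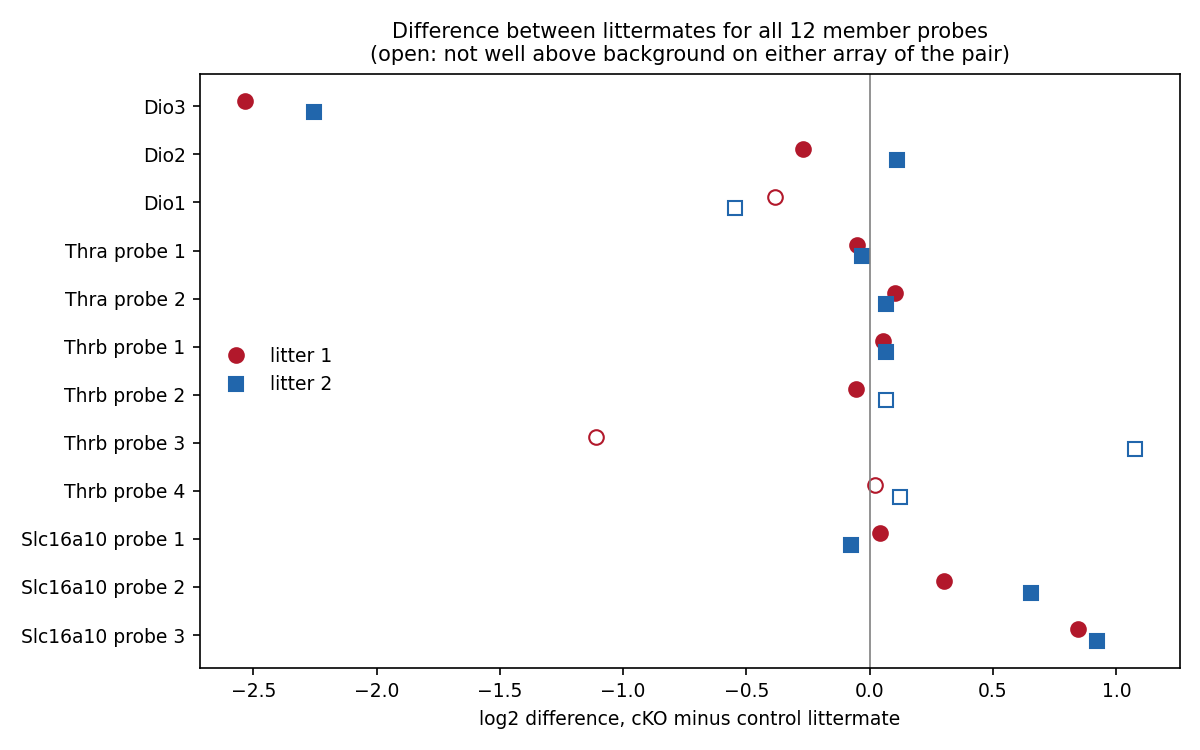
Log2 difference between each cKO animal and its control littermate (horizontal axis) for all 12 probes of the 6 genes, with circles for litter 1 and squares for litter 2. Open symbols are probes that failed the background flag in both littermates. The Dio3 points lie at -2.53 and -2.25, Slc16a10 probes 2 and 3 lie between 0.30 and 0.92, and every other filled symbol lies between -0.27 and 0.11.

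Thra encodes thyroid hormone receptor alpha, a nuclear receptor that represses or activates its target genes depending on whether hormone is bound. Probe 1 (chr11:98626356-98626415 in mm9, plus strand) read 6202 and 5147 units in cKO skin (litters 1 and 2), against 6249 and 5296 units in control skin. Probe 2 (chr11:98625642-98625701) read 1367 and 1198 units in cKO skin, against 1238 and 1154 units in control skin. The genotypes overlapped on both probes, and both were well above background on all 4 arrays. The mean differences were -0.04 for probe 1 (SE 0.16) and 0.08 for probe 2, and the largest difference between littermates on either probe was 0.10.

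Thrb encodes thyroid hormone receptor beta, the second nuclear receptor for T3. Probe 1 (chr14:18868800-18868859 in mm9, plus strand) was the one of 4 probes well above background on all arrays and read 144 and 195 units in cKO skin (litters 1 and 2), against 134 and 188 units in control skin. The genotypes overlapped, and the mean difference was 0.06 (SE 0.22), with 0.05 in litter 1 and 0.07 in litter 2. Probe 2 (chr14:18869432-18869491) read 52.3 and 31.1 units in cKO skin, against 52.8 and 29.9 units in control skin. It was well above background on both arrays of litter 1 and on neither of litter 2, so it did not pass the filter. Probes 3 and 4 (chr14:18866221-18866280 and chr14:18814565-18814624) were not well above background on any array, with signals of 5.31 to 21.1 units in cKO skin and 5.09 to 16.8 units in control skin. Probe 4, which the files assign to transcript variant 2 and not to the second RefSeq transcript that the other 3 probes list, lies 54.2 kb upstream of probe 1.

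Litter played no part in the choice of these genes, so litter 2 was set against litter 1 in a test with genotype as a covariate. Each litter is 2 animals, so the p-values measure the spread between these 4 animals and leave 1 residual degree of freedom. None of the 5 members tested passed an adjusted p of 0.05, as none of the 15550 genes did (0%). At an unadjusted p under 0.05 there were 4 of the 5 members (Thrb, Dio2, Slc16a10 and Thra), against 2502 genes or 16.1% of all genes tested. The smallest adjusted p over all genes was 0.246.

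Dio2 read 406 (cKO) and 378 (control) units in litter 2, against 214 (cKO) and 251 (control) units in litter 1. The difference was 0.72 on the log2 scale (95% confidence interval 0.33 to 1.12), or 1.65-fold higher in litter 2. Its unadjusted p was 0.00943 and its adjusted p 0.248 by limma. Both genotypes showed that direction, by 0.91 between the cKO animals and by 0.53 between the control animals, and 1.66% of genes had a larger litter difference in either direction.

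Thrb probe 1 was 0.43 higher in litter 2 (confidence interval 0.23 to 0.62, adjusted p = 0.246 by limma), and Slc16a10 probe 1 was 0.37 higher (0.15 to 0.59, adjusted p = 0.256 by limma). The higher value of each genotype came from litter 2 for both. Thrb probe 2, 632 bases from probe 1, was not well above background in litter 2, so its litter difference of -0.82 is not a measured level on that side. It was -0.78 with quantile normalization, -0.77 with median scaling and -0.30 with normexp after 3 spots at or below their local background were left out. Plain normexp, in which those 3 spots moved the fitted background of cKO replicate 2, gave 0.66. Outside plain normexp its sign was thus the opposite of that of probe 1, and no size is given for it. The first 30 bases of both probes are shown because they were read in the same gene with different values.
Thrb probe 1: aaatcattctcttctaatcttgtccagact
Thrb probe 2: gtcttacggtttttgagatgtagccagtgt

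Thra had its lower values in litter 2, with a difference of -0.29 for probe 1 (confidence interval -0.49 to -0.09, adjusted p = 0.267 by limma) and of -0.18 for probe 2. Dio3 differed by 0.27 between litters (-0.05 to 0.59, adjusted p = 0.341 by limma). The litters also differed in the summed signal of 8 fibroblast markers, which in multiples of the 75th percentile was 419 (cKO) and 523 (control) in litter 2, against 703 (cKO) and 789 (control) in litter 1. The litter differences of the 8 fibroblast markers ran from -0.85 (Col1a2) to -0.15 (Pdgfra). The share of all genes lower in litter 2 was not counted, and their median litter difference was 0.01. Fibroblast markers were not alone, since 5 red cell markers summed to 103 (cKO) and 148 (control) in litter 2, against 173 and 198 in litter 1. Fat cell markers summed to 406 (cKO) and 278 (control) in litter 2, against 441 and 374 in litter 1. For brown fat markers, which include Dio2, the sums were 32.4 and 35.2, against 34.6 and 39.1. Endothelial sums were also lower in litter 2 in both genotypes. Muscle, keratinocyte and thyroid gland sums moved in opposite directions in the 2 genotypes. Hair follicle markers ran the other way, at 1904 (cKO) and 2133 (control) in litter 2, against 1832 and 2006 in litter 1. The part of these markers in the litter differences of Dio2, Thrb, Slc16a10 and Thra was not tested.

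**Figure D3:**
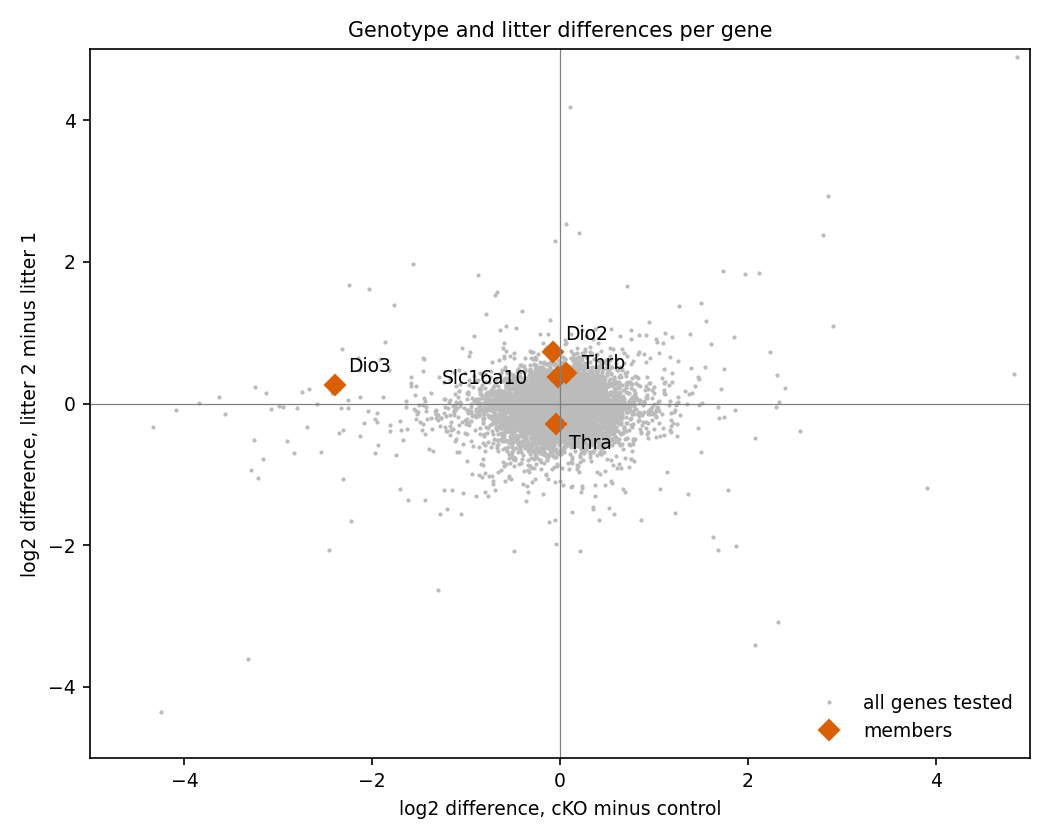
Log2 difference of cKO minus control (horizontal axis) against litter 2 minus litter 1 (vertical axis) for all genes tested (grey points) and the 5 members tested (diamonds), with 1 gene outside the plotted range. Dio3 lies at -2.39 and 0.27, Dio2 at -0.08 and 0.72, and Thra at -0.04 and -0.29.

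The other genes of the pathway were read in the same fit from 8 lists. Of 102 listed genes, 98 were on the array, 75 passed the filter and none passed the adjusted threshold between cKO and control skin, where 0.341% of all genes did. At an unadjusted p under 0.05 there were 9 higher and 8 lower in cKO, where 8.03% of all genes were higher and 8.12% lower. These 17 genes numbered 28 with litter as a block and 4 with normexp background correction. In both litters 37 of the 75 were higher (49.3%) and 23 lower (30.7%), beside 40.4% and 32.1% of all genes tested, a comparison that was not tested. Their median difference was 0.09, beside 0.03 over all genes. None of them passed between litters.

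Of the other hormone transporters, 7 of 12 were tested, with a median difference of -0.21. Slc7a8, a light chain of the amino acid exchangers that also carries T3, had a log2 signal of 3.99 and 3.96 in cKO skin, against 4.74 and 5.33 in control skin, a difference of -1.06 (adjusted p = 0.158, limma). Slco4a1, an organic anion transporter, was at 0.25 and 0.05 in cKO skin, against -0.55 and -0.29 in control skin, a difference of 0.57 (adjusted p = 0.188, limma). Neither gene's genotypes overlapped, yet neither passed the test.

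Of the carriers, binding proteins and other enzymes, 4 of 10 were tested, and the median was 0.04. Crym, a cytosolic protein that binds T3, was at 6.41 and 6.53 in cKO skin, against 7.36 and 7.36 in control skin, a difference of -0.89 (adjusted p = 0.0574, limma). Sts, the steroid sulfatase, differed by 0.33 (adjusted p = 0.343, limma). Carriers of the blood such as Ttr, Alb and Serpina7 did not pass the filter.

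The 12 genes of selenoprotein synthesis and deiodinase turnover were all tested, and their median was 0.10. Eefsec, the elongation factor that delivers selenocysteine, differed by 0.23, and Sephs1 by 0.18, neither past the threshold. All 17 receptor partners and coregulators were tested, with a median of -0.01. Among them Hr, a corepressor of the thyroid hormone receptors that is needed for hair regrowth, differed by -0.46 (adjusted p = 0.312, limma) and the retinoid X receptor gene Rxrb by 0.22 (adjusted p = 0.329, limma).

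Of 25 genes known to respond to thyroid hormone in some tissue, mostly in rodent liver, heart, fat or brain, 19 were tested, with a median of 0.01, and 7 were higher (36.8%) and 8 lower (42.1%) in both litters, beside 40.4% and 32.1% of all genes. Thrsp, a lipogenic gene that T3 induces in rat and mouse liver, was at -0.16 and -0.14 in cKO skin, against -1.04 and -1.04 in control skin, a difference of 0.89 (adjusted p = 0.0534, limma). Ppargc1a, a coactivator of mitochondrial genes, was at -2.06 and -2.40 in cKO skin, against -1.11 and -1.35 in control skin, a difference of -1.0 (adjusted p = 0.116, limma). The 2 genes thus had opposite signs, and each kept its sign in both litters.

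Fat cells and muscle below the skin can enter a biopsy and express several of these genes. Of 10 fat cell markers tested, 7 were higher in cKO in both litters, where 40.4% of all genes were, with a median difference of 0.59 and a summed signal of 406 to 441 in cKO skin and 278 to 374 in control skin. The smallest p-values were those of the hormone gene Retn, which differed by 1.68 (adjusted p = 0.0534, limma), and the lipid droplet gene Cidec, by 0.64. Of 10 skeletal muscle markers tested, 8 were higher in cKO in both litters, against the same 40.4% (median 0.32, sums of 545 to 573 in cKO skin and 401 to 535 in control skin), among them Mb by 0.84 and Myh2 by 0.75. The 5 brown fat markers tested, which include Dio2 and Ppargc1a, had a median of -0.08 and sums of 32.4 to 34.6 in cKO skin and 35.2 to 39.1 in control skin, with Cidea at a difference of -0.41, and the defining marker Ucp1 did not pass the filter. No gene of these 3 marker lists passed the threshold. Their part in the values of Thrsp, Ppargc1a, Dio2 and Slc16a10 was not tested.

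For the cells that lost Adam17, the 8 keratinocyte markers had a median difference of 0.22, with summed signals of 1228 to 1323 in cKO skin and 1039 to 1062 in control skin, and 7 were higher in cKO in both litters (40.4% of all genes were). Dsg3, a desmosomal cadherin and the 1 marker of the 8 that was lower in both litters, differed by -0.85 (adjusted p = 0.0635, limma). Cdh1, the E-cadherin gene, differed by 0.74 (adjusted p = 0.0780, limma). The largest difference was that of the keratin gene Krt1, 1.74 (1.38 in litter 1 and 2.11 in litter 2, adjusted p = 0.127 by limma). The 7 hair follicle markers tested had a median of -0.05 (sums of 1832 to 1904 in cKO skin and 2006 to 2133 in control skin), with the inner root sheath keratin Krt27 at -0.63 and Lef1 at 0.46. Neither list had a gene past the threshold, and their part in the Dio3 difference was not tested. Fibroblast markers had a median of -0.08 (Pdgfra 0.14, Col1a2 -0.44), endothelial markers -0.07 (Tek -0.63, Kdr -0.45) and red cell markers -0.37 (Slc4a1 -0.92, Ahsp -0.48). Of the 6 endothelial markers, 3 were lower in cKO in both litters, where 32.1% of all genes were. The other 3 had opposite signs in the litters, as did 4277 of the 15550 genes tested. All 5 red cell markers tested were lower in cKO in both litters, against the same 32.1%. Of 6 thyroid gland markers 2 were tested, Tg and Slc5a5, with a median of -0.30, and no gene of these last 4 lists passed the threshold.

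Of 11 hedgehog pathway genes, a list included because the pathway is known upstream of Dio3 in mouse keratinocytes, 10 were tested and none passed the threshold. Their median difference was 0.34, beside 0.03 over all genes, and 8 of the 10 were higher in cKO in both litters, as were 40.4% of all genes. Taken by litter, these 10 genes had a median of 0.44 (litter 1) and 0.18 (litter 2). Gli3, a transcription factor of the pathway, differed by 0.38 (adjusted p = 0.210, limma) and its inhibitor Sufu by 0.34 (adjusted p = 0.211, limma). Dio3 also lies in an imprinted cluster, of whose other genes 3 of 6 listed were tested. Meg3, a non-coding RNA of that cluster, differed by 0.39 (adjusted p = 0.243, limma) and Rian by 0.25, and the median of the 3 was 0.25.

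Of 10 genes of the pituitary and thyroid axis, 3 were tested, with a median of -0.28. Tshr, the thyrotropin receptor, which fat cells and skin also express, was at -3.26 and -3.29 in cKO skin, against -4.12 and -4.31 in control skin, a difference of 0.94 (adjusted p = 0.0635, limma). Tg, the thyroglobulin gene, differed by -0.32 (adjusted p = 0.424, limma). Both genes were well above background on all 4 arrays, but the control values of Tshr and the Tg values of both genotypes lay near the limit. Tg was at -4.35 and -4.25 in cKO skin, against -4.17 and -3.77 in control skin. The dimmest signals still well above background were -4.86 (litter 1) and -4.62 (litter 2) on the control arrays. On the cKO arrays they were -4.86 and -4.50.

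**Figure D4:**
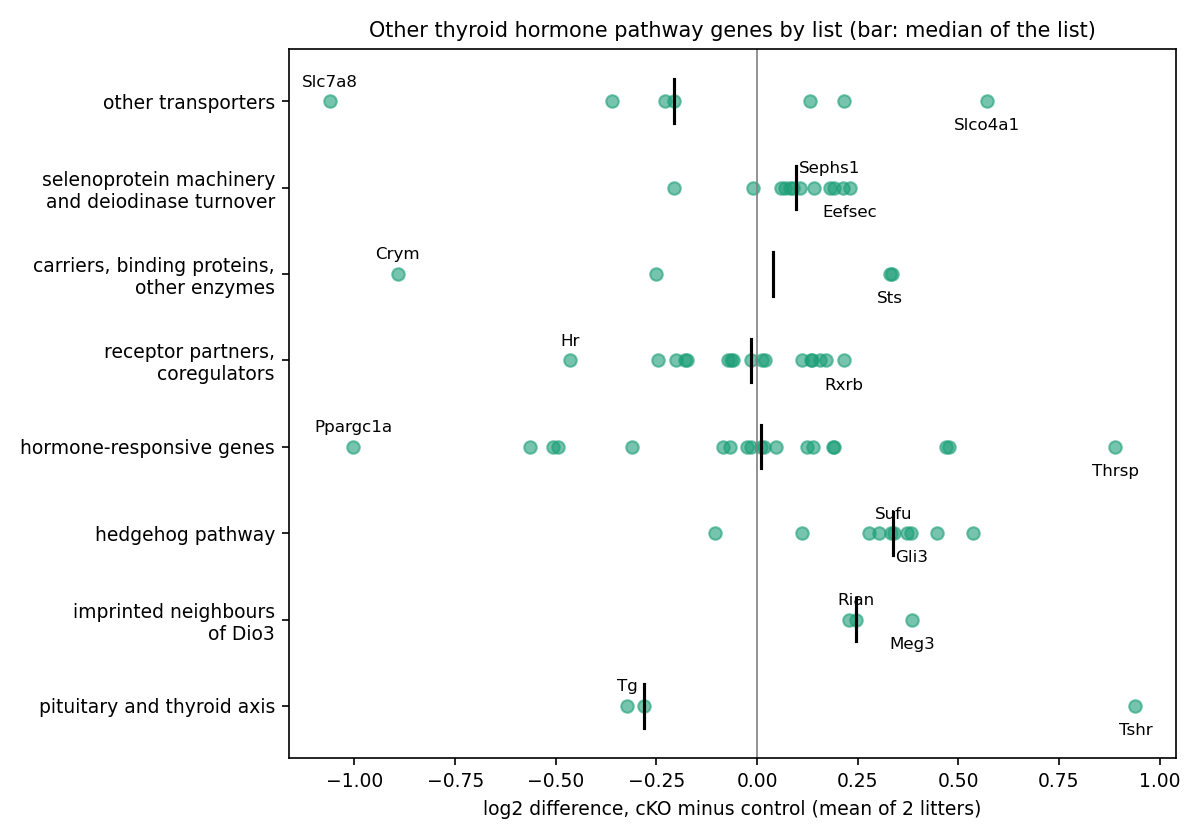
Log2 difference of cKO minus control (horizontal axis) for each gene tested in the 8 pathway lists, one point per gene, with a black bar at the list's median and the named genes labelled. The hedgehog list has its median at 0.34 and the other transporters at -0.21, and no point passed the adjusted threshold.

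The genes whose log2 signals, centred on their own means, ran closest to Dio3 over the 4 arrays were Slc30a3, Mab21l4 and Isl2, at root mean square differences of 0.037, 0.132 and 0.141. Mab21l4 was at 2.66 and 2.79 in cKO skin, against 4.99 and 4.96 in control skin, and was well above background on all 4 arrays. Slc30a3 and Isl2 were well above background on both control arrays and on neither cKO array, so their likeness rests on cKO values below the background limit. Closest to Dio2 were Tmem221, Rgs5 and Ankrd37, at 0.033, 0.048 and 0.052, all well above background on all 4 arrays. Rgs5 was at 0.85 (cKO) and 0.85 (control) in litter 2, against 0.04 (cKO) and 0.24 (control) in litter 1. Each gene named here was picked from all genes tested for its closeness to Dio3 or Dio2 over only 4 arrays. A shared split, such as that of Rgs5 and Dio2 by litter, therefore follows from the choice and is no separate finding. How close the nearest genes would lie by chance was not tested.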

How the data were processed

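RNA of 4 back skin biopsies was labelled with Cy3 and hybridised to the Agilent whole mouse genome design 014868, per the labels' protocols and the file headers. The authors deposited scanner files with intensity values per spot, of which the background-subtracted processed signal was used, and a table of log2 values, which matched the scanner log2 signal after scaling to the 75th percentile and centring of each probe on its median (correlation of 0.99999, array medians of -0.06 and 0.08 in cKO, -0.08 and 0.06 in control). The submitters' processing notes name Feature Extraction 10.5, and the file headers give 10.7.3.1. Probe positions are in mm9, per the file headers. All arrays shared 1 slide and 1 scan time, so neither could be tested as a batch.

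From the deposited intensity, log2 values were computed relative to the 75th percentile of an array's gene spots, without control spots and 51 to 66 outlier spots per array. No spot was saturated. A probe was kept where both arrays of either genotype were well above background (22188 of 41174), and each of 15550 genes was represented by its brightest probe. Names came from RefSeq (GRCm38.p6) by accession for 26690 probes, by symbol for 5189 and by synonym for 952, and 8343 kept the files' name. RefSeq promoters were found for 5 of the 6 members. limma 3.58.1 in R 4.3.3 was used (lmFit, eBayes, two-sided, adjusted p of 0.05 by Benjamini-Hochberg), with a prior of 2.37 degrees of freedom for genotype and 2.10 for litter. The number of arrays limits the precision.

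Replicate numbers mark litters in the labels, so they pair the animals. Deviations of littermates from their group means correlated across genes at 0.35 (Spearman 0.43). The block was an alternative, beside normexp background correction, quantile and median scaling, the deposited log2 table, other filters, the mean over probes and leaving out each animal.

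On simulated data of 15550 genes with 200 changed, over 20 simulations, the genotype test recovered 45.1% of 2-fold and 89.7% of 4-fold changes, with 5.11% false calls, and the litter test 14.3% and 87.0%, with 5.72% false calls. The simulated arrays were drawn independently from the fit's own prior, without the correlation of littermates. These rates hold under that model and do not measure false calls in the real data. The members, lists and tests were chosen with earlier results of these data known. Named in the text are every member, Adam17, of each pathway and marker list the 2 genes with the smallest p where none passed the threshold, and the 3 genes with the smallest root mean square difference from each of the 2 most variable members. Other names were chosen after their values were seen.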

Additional observations from a re-analysis of the deposited data

Results flagged for a closer look

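Dio2 and Slc16a10 (probe 1) had opposite signs in the 2 litters. The Dio2 difference, cKO minus control, was -0.27 in litter 1 and 0.11 in litter 2. For Slc16a10 it was 0.040 in litter 1 and -0.076 in litter 2. Each value is 1 cKO animal against 1 control animal, and the difference between litters was not tested.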

How the results depend on the processing

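Between cKO and control skin 53 genes (0.341% of those tested) passed the threshold. They numbered 80 (0.514%) with quantile normalization, 30 higher and 77 lower (0.688%) with median scaling, and 28 (0.187%) when a probe had to be above background on all arrays. The count was 0 (0%) without the filter on dim probes, with litter as a replicate block and with normexp background correction, and ranged from 0 to 38 (0% to 0.244%) with 1 animal left out. Dio3 lost its call in the 3 settings that gave 0 and without control replicate 1 or control replicate 2, and kept it elsewhere. Normexp was fitted again without 3 spots of cKO replicate 2 that lay at or below their local background, a setting chosen after seeing the data, since with them the fitted background mean of that array was -389.5, against 47.9 without them and 38.4 to 44.7 on the other arrays. That gave 135 genes (0.868%) by genotype and 121 by litter, where plain normexp gave 14 by litter and the other settings 0. The listed genes past the threshold were 1 with quantile normalization (Thrsp), 2 with median scaling (Thrsp, Tshr) and 2 with the refitted normexp (Crym, Thrsp), and 0 to 0 with 1 animal left out. The Dio3 difference was -2.06 with normexp and -2.17 refitted. With normexp Thrb gave 0.47, or 0.03 refitted, and Dio1, below background, 0.99, or -0.041 refitted. Slc16a10 gave 0.45 as the mean over its probes. Leaving out 1 animal gave -2.60 to -2.19 for Dio3, -0.54 to 0.38 for Dio2, -0.23 to 0.20 for Slc16a10, -0.19 to 0.11 for Thra and -0.16 to 0.28 for Thrb. For Dio1, below background on every array, the computed range of -0.77 to -0.16 carries no direction. No member passed between litters in any setting, and members at an unadjusted p under 0.05 numbered 0 with normexp, 5 refitted and 3 with the mean over probes. With 2 animals a group, values near background limit what could be seen. These are Dio1, Thrb probes 2 to 4 and Tg in both genotypes, and Slc16a10 probes 2 and 3 and Tshr in control.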
